A study of Mus musculus with 12 samples.

Results

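Of the 10 Fc receptor and C-type lectin genes listed for this description, 9 are in the deposited table of 11762 genes and are described here: the Fc gamma receptor genes Fcgr1, Fcgr2b, Fcgr3 and Fcgr4, the shared signalling chain gene Fcer1g, and the lectin genes Clec4n, Clec4d, Clec4e and Clec5a. The tenth, Clec7a, is not analysed here. Genes were chosen by family and with earlier results of these data known. They also had to be present in the table, so that they are expressed in these cells is not a finding. The measured value behind presence in the table was the level that kept a gene there. Gene means over all libraries start at 0.321 CPM, and the member with the lowest mean, Clec5a, stood at 39.1 CPM. RNA-seq of polyadenylated RNA was made from J774A.1 cells, a mouse macrophage line of BALB/c origin, in 4 groups of 3 biological replicates. The groups were mock-treated cells (control), cells given microparticles (MP), cells given bacterial lipopolysaccharide (LPS), and cells given both (LPS+MP). All groups are the same line, and no source used here states what the particles were made of, their dose or the exposure times. The replicates are called biological by the submitters, and nothing further is said of how the cultures were kept apart.

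Fc gamma receptors bind the constant part of IgG and let macrophages take up or respond to antibody-coated targets. The activating receptors signal through a phosphorylated tyrosine motif (ITAM) carried by the FcR gamma chain, which recruits the kinase Syk, while the inhibitory receptor carries the opposing motif (ITIM) that recruits the phosphatase SHIP-1. Several C-type lectins of macrophages, which recognise glycans and glycolipids of fungi and mycobacteria, use the same gamma chain or its relative DAP12 and then signal through Syk and Card9.

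Values are CPM (counts scaled by library total and not by gene length) and are given as each library's value or as the mean ± SD (n = 3). Changes are differences of log2(CPM + 1) ± SE from limma, with p-values adjusted over the 11745 genes tested. Here rose and fell are used only of changes over 2-fold (1 on the log2 scale) with an adjusted p under 0.05, which are also termed called. All 9 genes were tested; the lowest single value among them was 11.5 CPM (Clec4n in control). In RNA from whole cultures, fewer cells with a transcript and less of it per cell cannot be told apart.

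The labelled cell type was checked first. Of 9 macrophage markers 8 were in the table, and Adgre1 had no row under that name. Csf1r, the receptor for macrophage colony stimulating factor, was at 762 CPM or more in each library. No marker of B cells, T cells, NK cells or mast cells was in the table. Neutrophil markers (2 of 9 in the table) summed to 1.30 to 2.67 CPM in control and 4.14 to 6.04 in LPS, dendritic cell markers (2 of 8) to 10.6 to 12.5 CPM in MP and 6.39 to 8.22 in the other groups, and the fibroblast marker Pdgfra (1 of 5) stood at 1.00 to 1.64 CPM in control and 7.67 to 10.8 in LPS. The macrophage sum was 6803 to 7551 CPM in control, 6654 to 7088 in MP, 7435 to 8524 in LPS and 5808 to 6142 in LPS+MP. The part of these lists in the results was not tested. LPS replicate 2 stood apart from the other LPS libraries: 339 genes differed by over 1 (log2) from the mean of the others, against 1 to 29 genes for each of the other 11 libraries. For the 9 genes this difference was -0.55 for Fcer1g and between -0.15 and 0.32 for the rest. Results for LPS are therefore also given without that library where it matters.

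Both families sit in gene clusters. Fcgr2b, Fcgr4, Fcgr3 and Fcer1g lie within 274 kb of chromosome 1 (170960558 to 171234365), and Clec4n, Clec4d and Clec4e within 60.0 kb of chromosome 6 (123229843 to 123289870). Fcgr1 lies on chromosome 3 (96282909 to 96293969) and Clec5a elsewhere on chromosome 6 (40574894 to 40585821). These are the coordinates of the deposited table; for Fcgr1, Fcgr4, Fcer1g and Clec4e they equal those of the same transcript in GENCODE M21 on GRCm38.

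Promoter sequences are shown for genes whose RNA moved differently: Clec4e and Clec4d, neighbours that both rose with LPS and of which Clec4e alone was called with MP, Fcgr1 and Fcgr4, activating receptors that rose with LPS, and Clec5a, for which LPS against control did not pass. They come from RefSeq (GRCm38.p6, the C57BL/6J reference and not the J774A.1 genome) and run from 250 bases before to 50 bases after the start site, on the gene's strand. The windows are chr6:123289822-123290121 (minus strand) for Clec4e, chr6:123261857-123262156 (plus) for Clec4d, chr3:96293920-96294219 (minus) for Fcgr1, chr1:171018676-171018975 (plus) for Fcgr4 and chr6:40585756-40586055 (minus) for Clec5a. Capitals mark matches on either strand to one of 6 motifs.
Clec4e: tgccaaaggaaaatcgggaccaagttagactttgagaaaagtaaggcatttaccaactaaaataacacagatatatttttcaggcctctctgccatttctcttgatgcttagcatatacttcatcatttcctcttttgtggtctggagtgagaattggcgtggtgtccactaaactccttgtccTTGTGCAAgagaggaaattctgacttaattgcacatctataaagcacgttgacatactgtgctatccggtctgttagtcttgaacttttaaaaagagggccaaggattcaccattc
Clec4d: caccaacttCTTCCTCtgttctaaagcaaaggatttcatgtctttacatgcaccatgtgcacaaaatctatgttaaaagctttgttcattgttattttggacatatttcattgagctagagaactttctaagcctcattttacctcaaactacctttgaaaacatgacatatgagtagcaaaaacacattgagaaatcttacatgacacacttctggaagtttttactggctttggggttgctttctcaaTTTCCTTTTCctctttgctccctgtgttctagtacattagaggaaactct
Fcgr1: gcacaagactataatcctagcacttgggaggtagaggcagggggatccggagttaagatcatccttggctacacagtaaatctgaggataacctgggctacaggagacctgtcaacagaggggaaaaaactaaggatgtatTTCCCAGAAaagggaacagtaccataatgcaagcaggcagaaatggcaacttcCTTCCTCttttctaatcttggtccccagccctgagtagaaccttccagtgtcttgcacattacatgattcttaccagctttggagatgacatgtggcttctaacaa
Fcgr4: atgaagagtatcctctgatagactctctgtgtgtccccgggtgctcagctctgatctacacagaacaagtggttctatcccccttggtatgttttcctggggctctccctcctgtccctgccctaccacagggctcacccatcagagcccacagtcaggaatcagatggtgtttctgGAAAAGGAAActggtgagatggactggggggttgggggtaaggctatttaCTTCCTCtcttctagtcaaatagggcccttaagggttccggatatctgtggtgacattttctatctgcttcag
Clec5a: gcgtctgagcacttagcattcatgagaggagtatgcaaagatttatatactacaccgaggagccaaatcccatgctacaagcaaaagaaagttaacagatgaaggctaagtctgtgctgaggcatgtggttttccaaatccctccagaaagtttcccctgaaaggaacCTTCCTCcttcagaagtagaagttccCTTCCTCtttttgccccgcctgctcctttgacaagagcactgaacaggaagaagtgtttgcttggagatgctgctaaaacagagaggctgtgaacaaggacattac

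The motifs were those of PU.1 (GAGGAAG, in 13.6% of all 32851 promoter windows), C/EBP (TTGCNNAA, 10.8%), GAS, the STAT site (TTCNNNGAA, 8.30%), AP-1 (TGANTCA, 7.81%), a kB-like motif (5.56%) and an ISRE-like motif, after the interferon-stimulated response element (3.44%). Positions count from the start site as 0. In Fcgr1 a GAS match lay at -109 to -101 and a PU.1 match at -56 to -50. Fcgr4 held an ISRE-like match at -73 to -64 and a PU.1 match at -23 to -17. The Clec4e window held a C/EBP match at -66 to -59 and no match to the other 5 motifs. Clec4d held a PU.1 match at -241 to -235 and an ISRE-like match at 0 to 9, and Clec5a held 2 PU.1 matches, at -82 to -76 and -56 to -50. No marked matches overlapped. Of the windows searched but not printed, those of Fcgr2b and Fcer1g held no match. Each Fcgr3 window held a kB-like, a C/EBP and a PU.1 match. A match describes letters in the window and shows no binding.

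Fcgr1 encodes CD64, the high-affinity activating receptor for monomeric IgG. Its level was 42.9, 37.5 and 45.2 CPM in the control libraries, 82.0, 80.7 and 90.0 in MP, 430, 365 and 356 in LPS, and 222, 229 and 197 in LPS+MP. No 2 groups overlapped, and LPS alone gave the highest level. LPS against control was a rise of 3.17 ± 0.09 on the log2 scale (8.97-fold, adjusted p = 2.15e-13). With MP alone Fcgr1 was 1.99-fold higher (0.99 ± 0.09, with an adjusted p under 0.05), just short of the fold threshold. In LPS+MP it was lower than in LPS (-0.82 ± 0.09, adjusted p = 6.18e-06), again by less than 2-fold, while it had risen by 2.34 ± 0.09 over control.

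Fcgr3 encodes the low-affinity activating receptor CD16. It stood at 276, 236 and 252 CPM in control, 119, 114 and 129 in MP, 292, 253 and 244 in LPS, and 150, 142 and 132 in LPS+MP. Both groups without particles overlapped, and every library with particles lay below every library without them. Fcgr3 fell with MP alone by 1.07 ± 0.08 (adjusted p = 2.05e-07). Added to LPS, MP gave a difference of -0.89 ± 0.08 (adjusted p = 1.21e-06), under the fold threshold, and LPS alone differed from control by 0.05 ± 0.08 (adjusted p = 0.662). Fcgr3 was 1 of the 2 genes of the 9, with Clec5a, that did not differ between LPS and control at an adjusted p under 0.05.

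Fcgr4 encodes an activating receptor of intermediate affinity for some IgG subclasses. Values were 68.6, 60.7 and 72.5 CPM in control, 43.9, 42.8 and 55.5 in MP, 215, 227 and 195 in LPS, and 87.9, 82.9 and 92.6 in LPS+MP. The 4 groups did not overlap. Fcgr4 rose with LPS by 1.64 ± 0.10 (3.13-fold, adjusted p = 1.28e-09) and fell when MP was added to LPS, by 1.26 ± 0.10 (adjusted p = 1.71e-07). MP alone gave -0.50 ± 0.10 (adjusted p = 0.00112), and LPS+MP stood 0.38 ± 0.10 above control (adjusted p = 0.00360), neither reaching 2-fold. The difference of Fcgr4 between LPS+MP and MP was 0.88 ± 0.10, which reached 1.00 without MP replicate 3 and 1.03 with median-ratio scaling.

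Fcgr2b encodes the inhibitory receptor of the family. The control libraries held 447, 405 and 456 CPM, MP 664, 588 and 572, LPS 1425, 1571 and 1360, and LPS+MP 1120, 1111 and 1155. Its order of groups was that of Fcgr1, without overlap. Fcgr2b rose with LPS by 1.73 ± 0.08 (3.32-fold, adjusted p = 4.13e-11) and in LPS+MP over control by 1.37 ± 0.08 (adjusted p = 4.18e-10). MP alone gave 0.48 ± 0.08 (adjusted p = 0.000248) and MP added to LPS gave -0.36 ± 0.08 (adjusted p = 0.00259).

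Fcgr2b and Fcgr3 have closely related ligand-binding parts, and reads from them can be hard to assign. Of all 50-base stretches of the Fcgr3 transcript listed in the table, 12.8% also occurred in Fcgr2b transcripts of GENCODE M21, and 4.75% of those of Fcgr2b occurred in Fcgr3. The longest stretch that their coding sequences share is 129 bases, at coding bases 278 to 406 of Fcgr2b and 263 to 391 of Fcgr3, printed here to show how far a short read can fail to tell them apart.
shared coding stretch: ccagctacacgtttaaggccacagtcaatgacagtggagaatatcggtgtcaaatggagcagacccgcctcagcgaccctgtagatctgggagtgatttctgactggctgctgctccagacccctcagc

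No source used here says how the authors' counting treated such reads, and the values of both genes carry that uncertainty. In MP against control Fcgr3 fell while Fcgr2b was higher. How far shared reads altered the change of either gene, in any comparison, was not tested. Of the 50-base stretches of Fcgr2b, 4.29% also occurred in Olfr1039 and 4.09% in Ntrk3, and of those of Clec4n 0.932% occurred in Gm44147. For Fcgr1, Fcgr4, Fcer1g, Clec4d, Clec4e and Clec5a no shared 50-base stretch was found. Fcgr2b also overlaps an annotated antisense gene (Gm38204), and the strand setting of the counting is not given either.

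Fcer1g, the gamma chain gene, varied least, with a highest value 1.93 times the lowest over all libraries. It measured 312, 283 and 331 CPM in control, 245, 242 and 257 in MP, 468, 307 and 433 in LPS, and 396, 349 and 391 in LPS+MP. MP libraries were lowest, and LPS overlapped both control and LPS+MP through LPS replicate 2. Fcer1g passed the fold threshold in no comparison. LPS against control was 0.36 ± 0.12 (adjusted p = 0.0162) and 0.55 ± 0.07 (adjusted p = 1.18e-06) without LPS replicate 2. MP against control was -0.31 ± 0.12 (adjusted p = 0.0509); without that library, which belongs to neither group but adds to the pooled spread, the SE was 0.06 and the adjusted p 0.000392. With the replicate block the adjusted p was 0.0176.

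**Figure D1:**
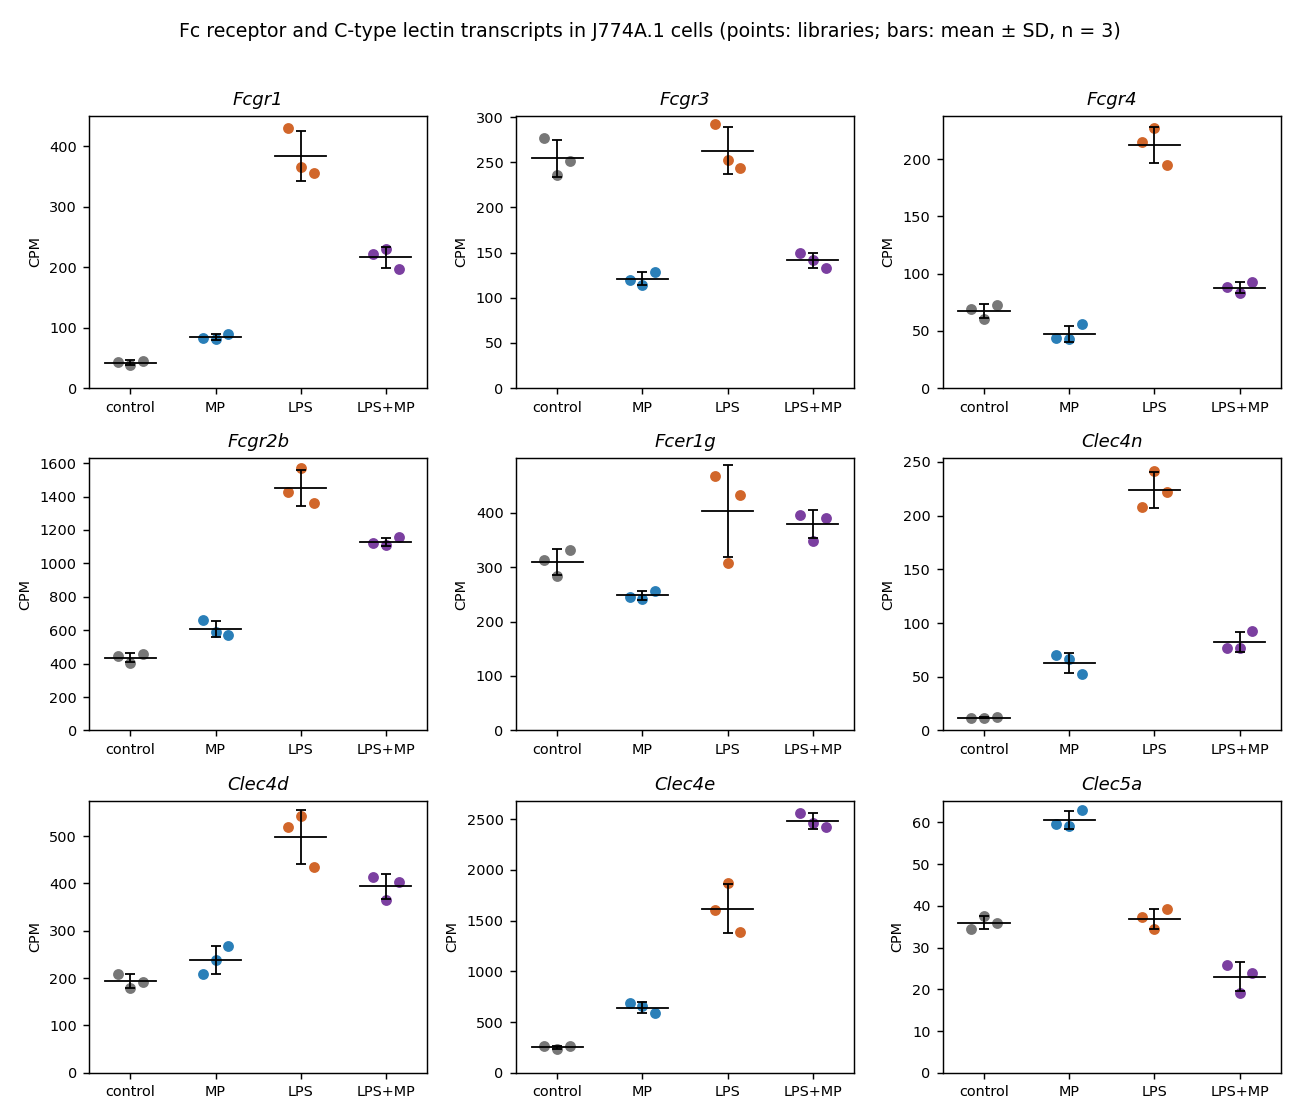
CPM of each gene (vertical axes, linear from 0) in the 4 groups (horizontal axes). Points are libraries and bars the mean ± SD of 3; Fcgr3 is lower in both groups with particles, Clec4e is highest in LPS+MP (2420 to 2566 CPM), and Clec5a is highest in MP (59.1 to 63.0 CPM).

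Clec4n encodes Dectin-2, a receptor for fungal mannans that signals through the gamma chain. Control libraries held 11.5, 11.6 and 12.1 CPM, MP 70.1, 66.5 and 52.4, LPS 208, 242 and 222, and LPS+MP 76.8, 77.1 and 92.7. Its range was the widest of the 9 genes, 21.1-fold between the highest and lowest library. Clec4n rose with MP alone by 2.32 ± 0.11 (4.99-fold, adjusted p = 6.27e-10) and with LPS by 4.14 ± 0.11 (17.6-fold, adjusted p = 5.63e-14). It fell by 1.44 ± 0.11 (adjusted p = 8.04e-08) when MP was added to LPS. LPS+MP lay only 0.38 ± 0.11 above MP alone (adjusted p = 0.00643), under the fold threshold.

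Clec4d encodes MCL, a lectin that pairs with Mincle at the cell surface. Control values were 209, 179 and 192 CPM, MP values 210, 238 and 268, LPS values 519, 543 and 434, and LPS+MP values 414, 365 and 402. Control and MP did not overlap but nearly touched, at 209 and 210 CPM. Clec4d rose with LPS by 1.36 ± 0.10 (2.56-fold, adjusted p = 1.29e-08). With MP alone it was higher by 0.30 ± 0.10 (adjusted p = 0.0290), and MP added to LPS gave -0.33 ± 0.10 (adjusted p = 0.0183). LPS+MP stood 1.02 ± 0.10 above control (adjusted p = 2.65e-07), at the threshold: it was 0.97 without control replicate 2, 0.99 without LPS+MP replicate 1 and 0.95 with quantile normalization.

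Clec4e encodes Mincle, the receptor for the mycobacterial glycolipid trehalose dimycolate. It measured 262, 235 and 261 CPM in control, 685, 660 and 586 in MP, 1605, 1868 and 1387 in LPS, and 2566, 2460 and 2420 in LPS+MP. Each group lay wholly above the one before it in that order. Clec4e rose with MP by 1.34 ± 0.10 (2.54-fold, adjusted p = 8.69e-08), with LPS by 2.67 ± 0.10 (6.35-fold, adjusted p = 3.28e-12) and with both by 3.29 ± 0.10 (9.80-fold, adjusted p = 1.56e-13). Added to LPS, MP gave 0.63 ± 0.10 (adjusted p = 0.000163), short of 2-fold. Of the 9 genes it was the one that was higher in LPS+MP than in LPS at an adjusted p under 0.05; 7 were lower and Fcer1g did not pass (-0.07 ± 0.12, adjusted p = 0.686; -0.25 ± 0.07, adjusted p = 0.00815 without LPS replicate 2).

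Clec5a encodes MDL-1, which signals through DAP12. Its libraries held 34.5, 37.4 and 36.0 CPM in control, 59.5, 59.1 and 63.0 in MP, 37.2, 34.4 and 39.2 in LPS, and 25.9, 19.2 and 24.0 in LPS+MP. The control and LPS groups overlapped, MP lay above both and LPS+MP below both. MP alone gave 0.74 ± 0.10 (1.66-fold, adjusted p = 4.49e-05) and MP added to LPS -0.67 ± 0.10 (adjusted p = 0.000117), neither past the fold threshold. Clec5a fell by 1.37 ± 0.10 in LPS+MP against MP (adjusted p = 1.27e-08), and LPS alone differed from control by 0.04 ± 0.10 (adjusted p = 0.772).

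Counted over the 9 genes, MP alone was called for 3 (3.67% of all genes called): Clec4n and Clec4e rose (1.82% of all genes) and Fcgr3 fell (1.85%). By adjusted p alone 8 passed, where 38.9% of all genes did, and the median change was 0.48 against 0.02 over all genes. LPS alone was called for 6 (16.3% of all genes called), all up (8.30% of all genes) and none down (8.05%), and 7 passed by adjusted p alone (62.1% of all genes); the median was 1.64 against -0.08. In LPS+MP against control 5 were called (20.8%), all up (8.52% of all genes; 12.3% down), and all 9 passed by adjusted p alone (66.3% of all genes; median 1.02 against -0.10). These comparisons share the control libraries.

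MP added to LPS was called for 2 (4.52% of all genes called), Fcgr4 and Clec4n, both down (3.89% of all genes; 0.63% up). By adjusted p alone 8 passed (35.2% of all genes), 7 lower and Clec4e higher, with a median of -0.67 against -0.05. In LPS+MP against MP, 3 were called (13.6%): Fcgr1 and Clec4e rose (5.71% of all genes) and Clec5a fell (7.88%), with all 9 passing by adjusted p alone (55.6% of all genes; median 0.72 against -0.14). In LPS against MP, 7 were called (11.6%), all up (6.64% of all genes; 5% down), and 6 without LPS replicate 2, where Clec4d stood at 0.99. All 9 passed by adjusted p alone there (56.0% of all genes; median 1.26 against -0.12). The 9 genes were picked by family and with earlier results of these data known. These counts and the shares of all genes beside them are therefore a description, not a test of the family.

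**Figure D2:**
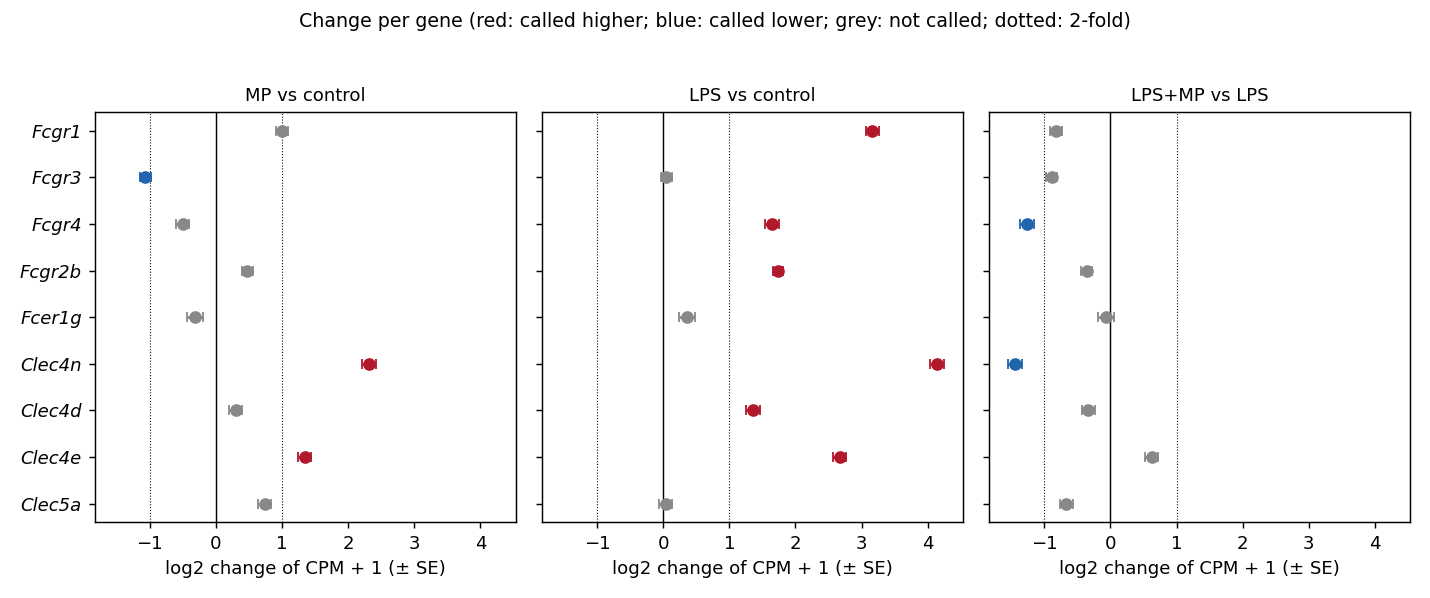
Change of each gene (horizontal axes, log2 of CPM + 1, ± SE) with MP alone, with LPS alone, and with MP added to LPS. Points are coloured where the gene was called; MP alone raised Clec4n and Clec4e and lowered Fcgr3, LPS raised 6 genes, and MP added to LPS lowered Fcgr4 and Clec4n.

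Whether the difference with microparticles depended on LPS was tested by the interaction, the change with MP in LPS-treated cells minus that in cells without LPS. It was called for 3 of the 9 genes, all negative (4.70% of all genes called, 3.68% negative and 1.02% positive): Clec4n at -3.76 ± 0.15 (adjusted p = 7.71e-10), Fcgr1 at -1.82 ± 0.13 (adjusted p = 4.24e-07) and Clec5a at -1.40 ± 0.14 (adjusted p = 7.21e-06). In these 3 genes MP gave a higher level without LPS and a lower one with it. By adjusted p alone 7 passed, where 22.0% of all genes did. The other 4 had negative interactions under the fold threshold: Fcgr2b (-0.84 ± 0.11, adjusted p = 8.93e-05), Fcgr4 (-0.76 ± 0.14, adjusted p = 0.00140), Clec4e (-0.72 ± 0.14, adjusted p = 0.00177) and Clec4d (-0.63 ± 0.14, adjusted p = 0.00515). For Fcgr3 the interaction was 0.18 ± 0.12 (adjusted p = 0.313) and for Fcer1g 0.24 ± 0.17 (adjusted p = 0.329). The interaction is on a log scale, so a negative value for Clec4e means a smaller fold with MP in LPS-treated cells, where the level was nonetheless the highest.

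**Figure D3:**
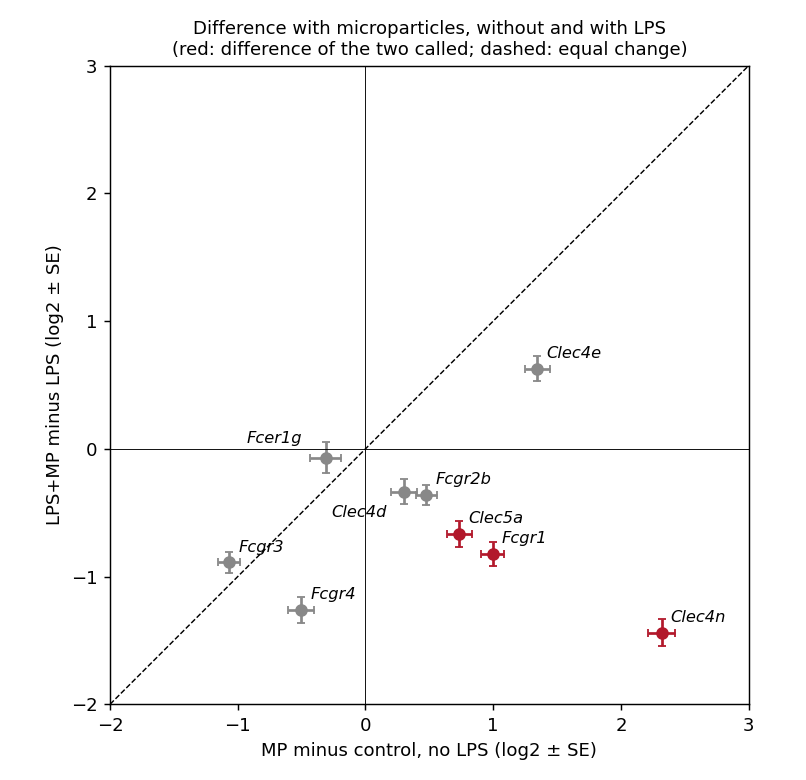
Change with MP in cells without LPS (horizontal axis) against change with MP in LPS-treated cells (vertical axis), both in log2 ± SE; the 2 axes share no libraries, and the dashed line marks equal change. Fcgr3 and Fcer1g lie near the line, while Clec4n (2.32 and -1.44), Fcgr1 (0.99 and -0.82) and Clec5a (0.74 and -0.67) lie far below it.

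To set the receptors beside each other, CPM was divided by the length in kb of the transcript listed in the table. Per kb, control cells held 189 ± 15.2 (SD, n = 3) of Fcgr3, 123 ± 7.64 of Fcgr2b, 53.6 ± 4.80 of Fcgr4 and 16.2 ± 1.53 of Fcgr1, so Fcgr3 was the most abundant of the 4 receptor transcripts. In the other groups Fcgr2b was the most abundant, at 171 ± 13.8 CPM per kb in MP, 410 ± 30.4 in LPS and 319 ± 6.53 in LPS+MP. Fcer1g, the chain that activating receptors need, exceeded each receptor in every group, from 368 ± 11.6 CPM per kb in MP to 598 ± 126 in LPS.

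The summed activating receptors (Fcgr1, Fcgr3 and Fcgr4) over Fcgr2b, per kb, came to 2.10 ± 0.0787 in control, 0.939 ± 0.129 in MP, 1.25 ± 0.116 in LPS and 0.811 ± 0.0441 in LPS+MP. Control libraries (2.04 to 2.19) lay above all others (0.761 to 1.38), and no test was run on this ratio because its genes were chosen with results known. Relative to control the ratio was 2.24 times lower in MP, 1.68 times lower in LPS and 2.59 times lower in LPS+MP. With the length of all annotated exons in place of the listed transcript the ratios were 2.87, 1.34, 1.87 and 1.20 in the same order of groups, so the level depends on the length used; the falls were then 2.14, 1.53 and 2.39 times. The parts differed by treatment. Fcgr3 over Fcgr2b was 1.54 ± 0.0867 in control, 0.526 ± 0.0606 in MP and 0.478 ± 0.0585 in LPS, through a lower Fcgr3 and a higher Fcgr2b in MP and through a higher Fcgr2b in LPS. Fcgr4 over Fcgr2b was 0.435 ± 0.0133 in control and 0.413 ± 0.0115 in LPS, and near 0.22 in both groups with particles (0.222 ± 0.0459 in MP, 0.219 ± 0.00806 in LPS+MP). Fcgr1 over Fcgr2b went the other way and was higher than control in each treated group. It was 0.131 ± 0.00455 in control, 0.191 ± 0.0233 in MP, 0.363 ± 0.0479 in LPS and 0.262 ± 0.0255 in LPS+MP. Fcgr1 made 6.25% ± 0.361 of the activating sum in control, 20.4% ± 0.412 in MP, 28.9% ± 1.15 in LPS and 32.3% ± 1.72 in LPS+MP.

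**Figure D4:**
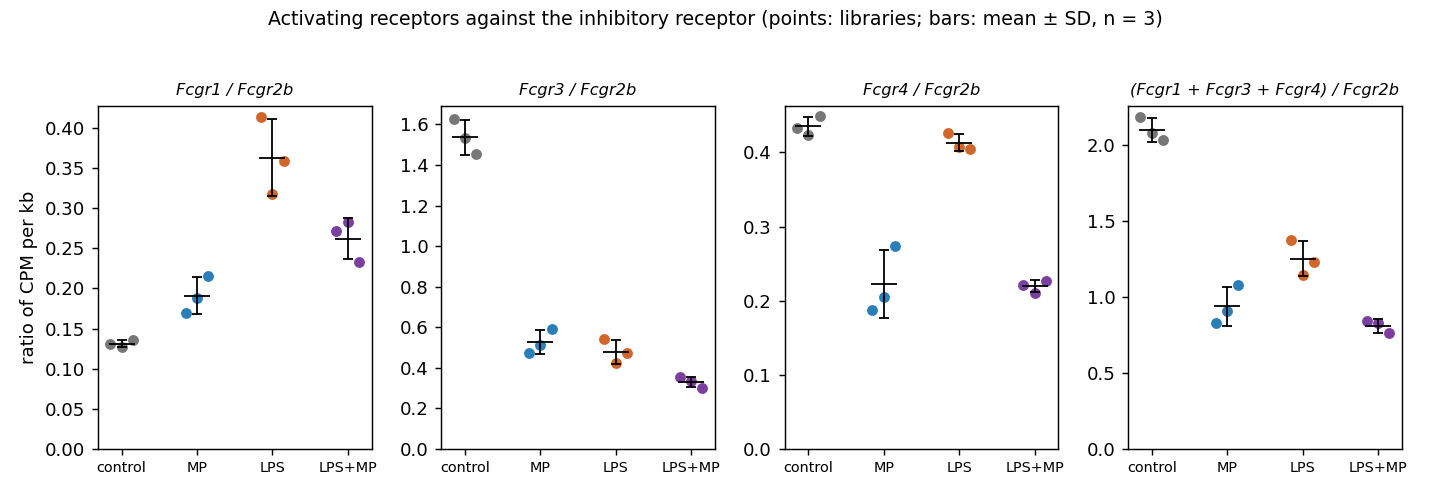
Ratio of CPM per kb (vertical axes, linear from 0) of each activating Fc gamma receptor gene, and of their sum, to the inhibitory receptor gene Fcgr2b, by group. Points are libraries and bars the mean ± SD of 3; the summed ratio is 2.04 to 2.19 in control libraries and 1.38 or less in all others.

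Among the lectins the clustered neighbours also differed in proportion. Clec4e over Clec4d, per kb, was 0.688 ± 0.0279 in control, 1.44 ± 0.286 in MP, 1.70 ± 0.0943 in LPS and 3.32 ± 0.199 in LPS+MP. These levels depend on the length used. With the length of all annotated exons, Clec4e stood at 130 CPM per kb in MP and Clec4d at 149, so the pair's order there reversed. Clec4n over Clec4d was 0.0657 ± 0.00572 in control, 0.290 ± 0.0755 in MP, 0.488 ± 0.0600 in LPS and 0.225 ± 0.0243 in LPS+MP. Mincle transcripts thus took their largest share of the pair with both agents, and Dectin-2 transcripts theirs with LPS alone.

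Likeness over the 12 libraries (Pearson correlation of log2(CPM + 1)) describes which genes share a pattern; the libraries fall into 4 groups, so each value mostly reflects group means. Fcgr1 and Fcgr2b followed each other (0.99), and Clec4d followed Fcgr1 (0.98). Outside the 9, the gene most like Fcgr1 was Vav1 (0.99), those most like Fcgr2b were Serp1 and Cp (both 0.99), and those most like Clec4d Tlr1 and M6pr (both 0.99). Clec4e was most like Cxcl2 (0.99), Clec4n like Csf3r (0.99) and Spn (0.98), and Fcgr4 like Snx14 and Mmp8 (both 0.99). Fcgr3 was most like C5ar1 (0.98), the gene of a complement peptide receptor, and Tmem19 (0.97), with no closer member than Fcgr4 (0.63). Fcer1g was most like Nfam1 (0.98) and Bsg (0.97). Clec5a was most like Ust and Pip4k2b (both 0.97), and its correlation with every other member was negative (-0.64 to -0.06).

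Genes that act downstream of these receptors were counted in the same way. Of 26 genes of signalling from ITAM receptors, MP alone raised 1 (1.82% of all genes) and lowered none (1.85%). The list's median was -0.13, against 0.02 over all genes. LPS raised 5 (8.30% of all genes) and lowered 2 (8.05%), with a median of -0.06 against -0.08 over all genes. Syk, the kinase that binds the phosphorylated motif, rose from 80.2 ± 1.64 to 381 ± 42.6 CPM (2.23 ± 0.08, adjusted p = 1.71e-12). Malt1, which carries the signal on from Card9 and Bcl10, rose by 2.42 ± 0.07 and the adaptor gene Lcp2 by 1.05 ± 0.07. Card9 itself stood at 74.5 ± 2.63 CPM in control and 104 ± 15.1 in LPS (0.46 ± 0.09, adjusted p = 0.000316) and passed no fold threshold. Tyrobp, the gene of DAP12, stood at 296 ± 45.5 and 229 ± 38.4 (-0.37 ± 0.13, adjusted p = 0.0184). MP added to LPS was called for none of the 26 by limma, against 4.52% of all genes (median -0.11 against -0.05). Of the 26, 15 had an unadjusted p under 0.05 and 12 an adjusted one (35.2% of all genes), 5 higher and 7 lower. Vav1 and Prkcd, named because their mean CPM over all 12 libraries was the highest of the list, stood at 415 ± 11.8 and 319 ± 33.9 CPM in LPS and at 371 ± 5.05 and 313 ± 8.06 in LPS+MP. The interaction was called for Malt1 (1.05 ± 0.10, adjusted p = 4.22e-06), which measured 36.9 ± 2.37 CPM in control, 34.3 ± 1.15 in MP, 202 ± 14.4 in LPS and 391 ± 3.50 in LPS+MP. Without LPS replicate 2, LPS raised 4 of the 26 and lowered 2, Lcp2 then being just under 2-fold.

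Of 16 tested genes for inhibitory receptors and phosphatases, MP alone lowered 3 (1.85% of all genes) and raised none (1.82%), with a median of -0.19 against 0.02. These were Cd300lf, from 54.5 ± 5.44 to 15.8 ± 2.07 CPM (-1.73 ± 0.11), the paired inhibitory receptor gene Pirb (-1.47 ± 0.20) and the lectin gene Clec12a (-1.14 ± 0.15). LPS raised 4 (8.30% of all genes) and lowered 1 (8.05%), with a median of 0.09 against -0.08. The sialic acid receptor gene Siglece was up by 3.23 ± 0.09 and Cd300a down by 2.78 ± 0.16. MP added to LPS lowered 4 (3.89% of all genes) and raised none (0.63%), with a median of -0.34 against -0.05. Those lowered were Siglece by 1.72 ± 0.09, Clec4a2 by 2.28 ± 0.16, Clec12a by 1.87 ± 0.15 and Pirb by 1.89 ± 0.20. Inpp5d, the gene of SHIP-1, the phosphatase that the product of Fcgr2b recruits, measured 334 ± 10.6 CPM in control, 233 ± 4.75 in MP, 290 ± 24.2 in LPS and 241 ± 8.35 in LPS+MP. It was lower with MP alone (-0.52 ± 0.07, adjusted p = 3.15e-05), with LPS (-0.21 ± 0.07, adjusted p = 0.0164) and with MP added to LPS (-0.27 ± 0.07, adjusted p = 0.00764). None of these comparisons passed the fold threshold. Ptpn6, the gene of SHP-1, stood at 403 ± 8.77 CPM in control and 637 ± 12.8 in LPS (0.66 ± 0.06, adjusted p = 1.43e-07), also under 2-fold.

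Of 13 other Fc receptor genes 4 were tested. Fcrlb alone rose with LPS (8.30% of all genes), from 0.420 ± 0.307 to 7.18 ± 3.97 CPM (2.39 ± 0.32, adjusted p = 8.78e-06). Limma called none with MP alone (3.67% of all genes called) and none with MP added to LPS (4.52%). In each, 2 of 4 had an unadjusted p under 0.05. Without LPS replicate 2, Fcrlb differed by 2.90 ± 0.19 between LPS and control. MP added to LPS then gave -0.97 ± 0.19 (adjusted p = 0.000352), against -0.46 ± 0.32 (adjusted p = 0.275) with it. With all libraries the interaction was called for 1 of the 4 (4.70% of all genes called), Fcrl1 (-1.35 ± 0.17, adjusted p = 5.89e-05). Without LPS replicate 2 that of Fcrlb was called as well (-1.28 ± 0.25, adjusted p = 0.000638). Trim21, the gene of a cytosolic IgG receptor, measured 13.6 ± 1.94 CPM in control and 10.2 ± 1.71 in MP (-0.38 ± 0.14, adjusted p = 0.0372). Fcgrt, the gene of the neonatal Fc receptor, which recycles IgG inside cells, measured 54.2 ± 2.93 CPM in control, 57.2 ± 2.31 in MP, 38.1 ± 4.50 in LPS and 31.3 ± 1.70 in LPS+MP. It was lower than control in LPS (-0.50 ± 0.09, adjusted p = 0.000170) and in LPS+MP (-0.77 ± 0.09, adjusted p = 1.70e-06), within 2-fold in each group.

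Of 31 other C-type lectin and lectin-like genes 15 were tested; Clec4a2 and Clec12a are also in the inhibitory list. MP alone raised 1 (1.82% of all genes), Ly75 (1.02 ± 0.14, from 1.10 ± 0.154 to 3.26 ± 0.473 CPM), and lowered 1 (1.85%), Clec12a. The list's median was -0.27, against 0.02 over all genes. LPS raised 7 (8.30% of all genes) and lowered 2 (8.05%), with a median of 0.92 against -0.08. Without LPS replicate 2 it was 8 up and 2 down. Clec4a1 rose from 59.2 ± 8.85 to 303 ± 25.7 CPM (2.34 ± 0.10), while the scavenger-type lectin gene Colec12 fell by 1.49 ± 0.07 and Mrc1, the mannose receptor gene, fell from 15.5 ± 3.08 to 2.84 ± 1.01 CPM (-2.12 ± 0.20). MP added to LPS lowered 6 (3.89% of all genes) and raised none (0.63%), with a median of -0.62 against -0.05. Without LPS replicate 2 it lowered 5. Among the 6 were Clec4a1 (-1.37 ± 0.10), Clec4a2 (-2.28 ± 0.16) and Clec4a3 (-1.78 ± 0.15). For the galactose-type lectin genes Clec10a and Mgl2 the interaction was -1.26 ± 0.10 and -1.67 ± 0.14: Clec10a stood at 107 ± 6.61 CPM in control, 209 ± 6.83 in MP, 124 ± 8.76 in LPS and 101 ± 4.35 in LPS+MP.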

How the data were processed

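Expression values of 12 libraries (J774A.1; control, MP, LPS and LPS+MP, 3 each) were used as deposited, with groups and replicate numbers from the labels. Libraries were directional and from polyadenylated RNA, per the labels' protocols. The submitters' processing notes list edgeR, DESeq2, HTSeq, TopHat2 (2.1.1), Trimmomatic (0.36) and FastQC (11.5) without saying what each did; no source used here names the build, annotation or strand setting. Columns are headed RPKM, but the deposited values were read as CPM, from the values alone: each sums to 998867 to 999273, and their log2 mean differed from the deposited log2 CPM column with an SD of 0.20 (0.99 with a length term). Low values were whole multiples of 1 step in 2 libraries only (0.155 to 0.8825 of values in the others, tolerance 0.05), so reads were not recovered, no count model was run, depth is unknown and no counting interval is given.

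Genes had to have 1 CPM or more in 3 or more libraries, which dropped 17; log2(CPM + 1) of 11745 genes was fitted with limma 3.58.1 (R 4.3.3) as 4 group means with a variance trend, with Benjamini-Hochberg adjustment over all genes tested. The call (adjusted p under 0.05, over 2-fold) uses the thresholds of the series description. The procedure was tested on simulated data. Replicate numbers did not pair libraries (18 same-number pairs, median residual correlation 0.018, -0.247 to 0.158; 3 of 12 libraries closest to their own number), and the replicate number was kept out of the model. Members, companion lists and motifs were chosen with earlier results of these data known. All members are named; of companion lists, up to 4 called genes per comparison with the smallest adjusted p (where none was called, the 2 of highest mean level), and Syk, Card9, Tyrobp, Fcgrt, Mrc1 and the inhibitory genes in any; for likeness, the 2 genes with the highest correlation to each member, predicted genes left out. Some genes that this rule selects are not reported here. Transcript lengths and shared 50-base stretches are from GENCODE M21, which held 11655 of the listed transcripts (4410 with equal start and end); promoters, found for 8 of the 9 genes, are from RefSeq. Alternatives were another pseudocount (0.1), no filter or 5 CPM, median-ratio scaling, quantile normalization, fitting without the variance trend, with the replicate number as a block or on the compared groups alone, dropping the fold threshold, and leaving out each library.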

Additional observations from a re-analysis of the deposited data

Results flagged for a closer look

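By the test of the difference itself, the change with MP depended on LPS in 7 of the 9 genes at an adjusted p under 0.05 (22.0% of all genes). In 3 of them the difference was also over 2-fold (4.70% of all genes called). The difference was -3.76 (log2) for Clec4n, -1.82 for Fcgr1 and -1.40 for Clec5a. In each of them MP gave a higher level in cells without LPS and a lower one in LPS-treated cells.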

How the results depend on the processing

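Over 63 values (9 genes in 7 comparisons) and 954 recomputations, 936 kept direction and side of the threshold. Reversals were of values near 0: leaving out 1 library at a time, Fcgr3 in LPS against control ranged from -0.0334 (without LPS replicate 1) to 0.1059, with -0.0086 without control replicate 2, Fcer1g in LPS+MP against LPS from -0.253 to 0.0501 (without LPS replicate 1), and Clec5a in LPS against control from -0.0069 (without LPS replicate 3) to 0.0852. Fcgr1, MP against control, passed 2-fold with a pseudocount of 0.1 (1.01), quantile normalization (1.02), and without control replicate 1 (1.01), control replicate 3 (1.05), MP replicate 1 (1.01) or MP replicate 2 (1.02). Clec4d, LPS against MP, missed it without LPS replicate 2 (0.99) or MP replicate 1 (0.97). With median-ratio scaling 5 of the 9 genes were called in LPS+MP against MP in place of 3, Fcgr2b (1.04) and Fcgr4 (1.03) being added; there the median of all genes moved from -0.14 to -0.01, and in LPS+MP against control from -0.10 to 0.00. The pseudocount of 0.1 called 807 genes in LPS+MP against LPS. Without a fold threshold the genes of the 9 called were 8 for MP against control, 9 for LPS+MP against control, 8 for LPS+MP against LPS, 9 for LPS+MP against MP and 7 for the interaction, out of 4570, 7786, 4138, 6527 and 2583 of all genes; of all genes 7297 were called for LPS against control and 6573 for LPS against MP. The replicate block changed none of the 63 calls and left, for example, 431 genes called in MP against control; fold changes are the same in both fits of this balanced design, and 432 genes passed 2-fold there at any p, so the fold threshold set that count. By adjusted p alone the block moved it from 4570 to 4491, and Fcer1g from 0.0509 to 0.0176.

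Leaving out 1 library at a time, the called genes of the 9 stayed at 3 to 4 for MP against control, 6 for LPS against control, 4 to 5 for LPS+MP against control, 2 for LPS+MP against LPS, 3 to 4 for LPS+MP against MP, 6 to 7 for LPS against MP and 3 for the interaction. Leaving LPS replicate 2 out of comparisons of other groups, and the length of all exons, were added after seeing the data. Depth per library is unknown, so the precision of single values cannot be stated.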
